A study of Mus musculus with 20 samples.

Results

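Tumour necrosis factor (TNF) family ligands are cytokines that most often sit in the membrane of a cell as trimers and act on receptors of neighbouring cells. The 9 ligand genes described here, Lta, Ltb, Tnf, Tnfsf8, Tnfsf10, Tnfsf11, Tnfsf14, Cd40lg and Fasl, were taken by gene name from a table of 22048 protein-coding genes. Each name matched 1 row, and all 9 were among the 13072 genes with enough reads to be tested. Their mRNA was followed through all 20 libraries of a study of Dot1l, the gene of the histone methyltransferase that methylates lysine 79 of histone H3, in mouse CD4+ T cells.

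The KO mice carried loxP-flanked Dot1l alleles and a Cre recombinase driven by CD4, while the WT mice carried the Cre alone, so every library came from a Cre-bearing animal. CD4-driven Cre becomes active in the thymus, where developing T cells of the CD8 lineage also pass through a CD4+ stage. Cells were enriched from spleen and peripheral lymph nodes. The groups were KO Th1, WT Th1 with SGC0946, WT Th1 with SGC0649 and WT Th1, the same 4 kinds of Th2 culture, and KO naive and WT naive cells, with n = 2 libraries each. The label naive stands for the starting population before culture. Cultures ran for 4 days on plates coated with antibodies against CD3 and CD28, each at 1 µg/ml. For Th1, IL-2 and IL-12 (10 ng/ml each) were given while anti-IL-4 (10 µg/ml) blocked IL-4. For Th2, IL-2 and IL-4 (10 ng/ml each) were given while anti-IFN-γ (10 µg/ml) blocked IFN-γ. Viable CD4+ cells were sorted at the end. SGC0946, a DOT1L inhibitor, and SGC0649, its control compound, were both used at 1 µM, and in WT cells only. Age, sex and strain are not given in the labels, nor is whether the 2 libraries of a group came from different animals, so p-values measure the spread between libraries, which may be technical.

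In T cells these ligands serve several roles. TNF and the lymphotoxins, encoded by Tnf, Lta and Ltb, drive inflammation and the building of lymphoid tissue, and their genes lie side by side in the major histocompatibility region. Lymphotoxin alpha is secreted as a homotrimer or held at the membrane in a complex with lymphotoxin beta. Fas ligand (Fasl) and TRAIL (Tnfsf10) can trigger apoptosis through death receptors. CD40 ligand (Cd40lg) is the T cell signal that licenses B cells and dendritic cells, CD30 ligand (Tnfsf8) and LIGHT (Tnfsf14) are costimulatory, and RANK ligand (Tnfsf11) drives osteoclast formation and supports dendritic cells.

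The Lta, Tnf and Ltb genes occupy 10913 bases of chromosome 17 in GRCm38. Ltb (35194439 to 35196320) is read from the plus strand, and Tnf (35199381 to 35202007) and Lta (35203165 to 35205351) from the minus strand, with 3060 bases between Ltb and Tnf and 1157 bases between Tnf and Lta. Their upstream sequences, from RefSeq (GRCm38.p6), are shown because the results below turn on these 3 neighbours moving apart. Each runs 5′ to 3′ in the direction of its gene and stops before the first base of the Ensembl gene, which for Ltb lies upstream of the RefSeq start. Motifs were searched in the 250 bases before each RefSeq start. Capitals mark matches, on either strand, to the NFAT core GGAAA, to GGGANTT, which is the start of a common NF-κB site, or to the TATA box TATAAA.

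Lta, chr17:35205352-35205601, minus strand: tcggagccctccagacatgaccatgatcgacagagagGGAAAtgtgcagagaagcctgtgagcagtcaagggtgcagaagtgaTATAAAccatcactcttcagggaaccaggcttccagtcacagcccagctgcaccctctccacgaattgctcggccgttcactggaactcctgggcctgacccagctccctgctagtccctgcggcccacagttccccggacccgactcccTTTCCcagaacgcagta

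Ltb, chr17:35194257-35194438, plus strand: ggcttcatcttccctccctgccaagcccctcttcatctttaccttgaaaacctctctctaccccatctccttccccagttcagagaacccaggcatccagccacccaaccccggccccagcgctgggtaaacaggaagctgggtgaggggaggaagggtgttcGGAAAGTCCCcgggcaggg

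Tnf, chr17:35202008-35202257, minus strand: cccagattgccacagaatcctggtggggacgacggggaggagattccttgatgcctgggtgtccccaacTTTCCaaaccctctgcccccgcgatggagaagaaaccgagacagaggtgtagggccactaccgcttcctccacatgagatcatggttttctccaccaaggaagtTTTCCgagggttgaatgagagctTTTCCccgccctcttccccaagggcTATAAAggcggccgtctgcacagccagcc

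The Tnf sequence held 3 NFAT cores, 181, 77 and 54 bases upstream of the RefSeq start, and a TATA box at 29 bases. Lta held 2 NFAT cores, at 213 and 17 bases, and a TATA box at 167 bases. Ltb held 1 NFAT core, at 87 bases, which overlaps the only GGGANTT match, at 84 bases. The NFAT core was present in the upstream sequence of all 8 members that RefSeq's table held (Cd40lg had no entry), and in 55.6% of 32851 mouse promoters. GGGANTT was present in 14.4% and TATAAA in 12.4% of those promoters. The AP-1 motif TGANTCA matched only in Tnfsf14 among the 8 (6.75% of all promoters), and the CRE motif TGACGTC (2.78%) and the EGR motif GCGTGGG (4.30%) in none.

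Protein-coding reads ran from 9704500 to 13025588 per library. Values are TMM-scaled CPM, a read count scaled to the depth of its library, log2 differences are given ± SE, and a gene was called when edgeR's quasi-likelihood test gave a Benjamini-Hochberg adjusted p under 0.05 over all 13072 genes. Dot1l mRNA, counted over all exons together, stood at 92.5 and 113 CPM in KO Th2 and 131 and 146 CPM in KO Th1 cultures, against 149 and 164 CPM in WT Th2 and 176 and 186 CPM in WT Th1 cultures. In naive cells it was 146 and 166 CPM in KO against 163 and 171 CPM in WT, a difference that was not called (adjusted p = 0.544), so it is a weak check of the labels. Some KO libraries also carried more mRNA of other cell types, and these values are given beside the results they move with. In such bulk samples fewer cells of a type and less RNA per cell cannot be told apart.

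Ltb was the most abundant of the 9 mRNAs in every group when counts were divided by exonic length. It ranged from 61.8 CPM per kb in KO Th2 to 328 CPM per kb in WT Th1 cultures. Cd40lg had rank 2 in naive cells, at 99.9 ± 3.78 CPM per kb in KO and 122 ± 2.72 CPM per kb in WT (SD, n = 2). Tnf took rank 2 in KO Th1 cultures, at 127 ± 16.8 CPM per kb against 41.5 ± 2.97 CPM per kb in WT Th1 (SD, n = 2), where it had rank 3. Tnfsf10 took rank 2 in KO Th2 cultures, at 34.3 ± 11.8 CPM per kb against 7.74 ± 0.12 CPM per kb in WT Th2 (SD, n = 2), where it had rank 7. The sum of the 9 was 275 and 408 CPM in KO Th2 against 855 and 819 CPM in WT Th2, the widest gap between a KO and its WT. In Th1 the sums were 852 and 739 CPM in KO against 965 and 968 CPM in WT, and in naive cells 690 and 761 CPM in KO against 802 and 809 CPM in WT.

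**Figure D1:**
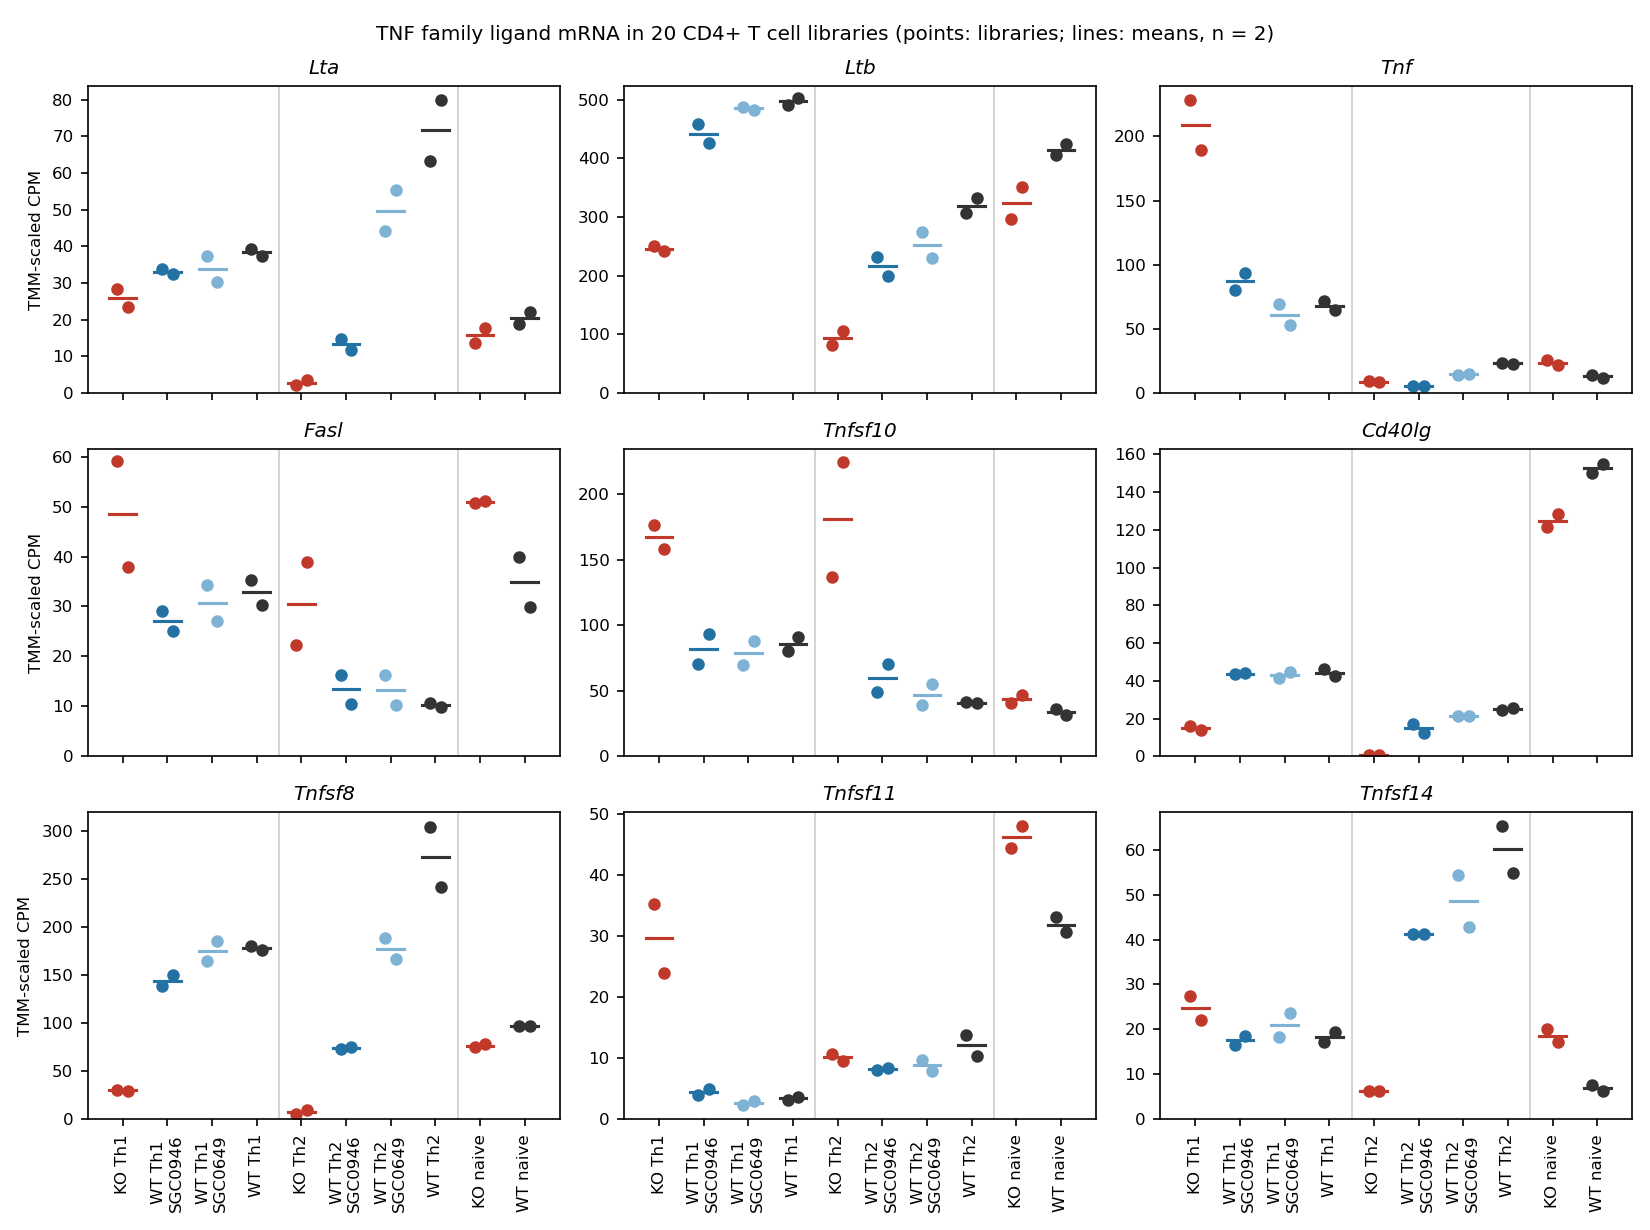
Level of each ligand mRNA in TMM-scaled CPM (vertical axes, from 0) in the 20 libraries, by group (KO red, SGC0946 dark blue, SGC0649 light blue, WT black); points are libraries and lines are means of n = 2. The red points of Tnf stand highest in Th1 at 228 and 189 CPM, while those of Lta, Cd40lg and Tnfsf8 lie near the floor in Th2.

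In WT cells, culture itself moved most of the ligands. WT Th1 cultures had 5 ligands higher and 2 lower than WT naive cells, where 67.3% of all tested genes were called, 34.3% as higher and 33.0% as lower. WT Th2 cultures had 4 higher and 4 lower than the same naive libraries, against 71.9% of all genes, 36.9% higher and 35.0% lower. Tnf rose most in Th1 culture, to 71.5 and 64.6 CPM in WT Th1 against 14.2 and 11.8 CPM in WT naive cells (log2 difference 2.39 ± 0.15, adjusted p = 5.27e-10). Tnfsf14 rose most in Th2 culture, to 65.3 and 54.9 CPM in WT Th2 against 7.56 and 6.29 CPM in WT naive cells (3.12 ± 0.18 on the log2 scale, adjusted p = 7.31e-11). Cd40lg and Tnfsf11 fell in both. Ltb, lower in WT Th2 than in WT naive cells (-0.38, adjusted p = 0.00871), lost its call without WT Th2 replicate 1 (0.0518) or WT naive replicate 2 (0.0504). All 9 ligands differed between WT Th1 and WT Th2 cultures, where 53.3% of genes were called, 26% as higher and 27.3% as lower. Ltb, Tnf, Tnfsf10, Cd40lg and Fasl were higher in Th1, and Lta, Tnfsf8, Tnfsf11 and Tnfsf14 were higher in Th2. Each of the 9 showed no overlap between the 2 conditions, but the matching share of all genes is not given, and 2 libraries per group separate easily.

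Between KO and WT libraries, 5 ligands were called in naive cells, 8 in Th1 and 8 in Th2 cultures. In naive cells Tnf, Tnfsf11 and Tnfsf14 rose and Ltb and Cd40lg fell, where 28.4% of all genes were called, 16% as higher and 12.4% as lower. In Th1 cultures Tnf, Tnfsf10, Tnfsf11 and Tnfsf14 rose and Lta, Ltb, Tnfsf8 and Cd40lg fell, against 50.6% of all genes, 24.8% higher and 25.8% lower. In Th2 cultures Fasl and Tnfsf10 rose and Lta, Ltb, Tnf, Tnfsf8, Tnfsf14 and Cd40lg fell, against 53.4% of all genes, 26.5% higher and 26.9% lower. The Th2 differences were also large: all 8 exceeded 2-fold, which 20.6% of all genes did, and the median over the 9 was -1.77 on the log2 scale against -0.0081 over all genes. In Th1 cultures 5 ligands passed 2-fold against 2218 of the 13072 genes, with a median of 0.44 against 0.0111. In naive cells only Tnfsf14 did, against 9.94% of genes (1300), with a median of 0.38 against 0.0134.

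**Figure D2:**
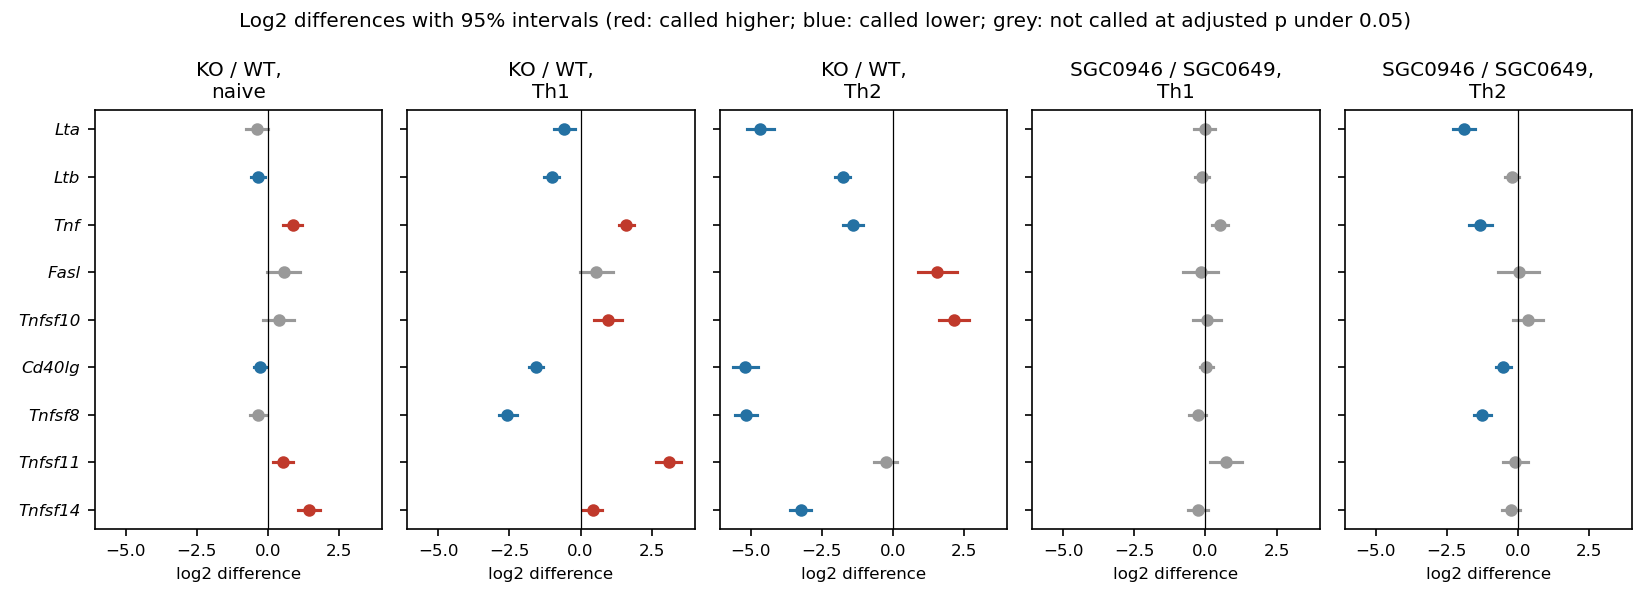
Log2 difference of each ligand (horizontal axes, with 95% interval) for KO over WT and for SGC0946 over SGC0649, with red for called higher, blue for called lower and grey for not called. In KO Th2 the points spread from -5.19 for Cd40lg to 2.15 for Tnfsf10, while in SGC0946-treated Th1 cultures all 9 are grey.

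The 3 neighbours on chromosome 17 did not move as a block in KO Th1 cultures. Tnf mRNA was 228 and 189 CPM in KO Th1 against 71.5 and 64.6 CPM in WT Th1 cultures. Ltb was 250 and 241 CPM in KO Th1 against 491 and 502 CPM in WT Th1, and Lta was 28.3 and 23.6 CPM in KO Th1 against 39.4 and 37.3 CPM in WT Th1. Tnf was thus higher in both KO libraries while the genes on either side of it were lower in both. The log2 differences were 1.62 ± 0.13 for Tnf (adjusted p = 4.94e-08), -1.02 ± 0.12 for Ltb (adjusted p = 2.99e-06) and -0.56 ± 0.17 for Lta (adjusted p = 0.0119). Lta was no longer called when KO Th1 replicate 2 (adjusted p = 0.0995) or WT Th1 replicate 1 (0.0618) was left out.

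Mast cell and basophil markers moved with Tnf in Th1 cultures. Their sum was 2144 and 910 CPM in KO Th1 against 179 and 136 CPM in WT Th1, with 10 of 10 markers called higher and none at 0. Myeloid and dendritic markers summed to 217 and 172 CPM in KO Th1 against 83.5 and 86.2 CPM in WT Th1, with 7 of 11 higher. Mast cells and macrophages also make TNF. The cultures were sorted for viable CD4+ cells, and the part of these other cell types in the Tnf value was not tested.

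In KO Th2 cultures all 3 genes of the locus fell. Lta had 2.19 and 3.56 CPM in KO Th2, which is 25 and 33 reads, against 63.3 and 79.8 CPM in WT Th2. Ltb had 81.2 and 106 CPM in KO Th2 against 307 and 332 CPM in WT Th2, and Tnf had 9.10 and 8.52 CPM in KO Th2 against 23.5 and 23.1 CPM in WT Th2. No KO library reached its WT counterparts for any of the 3. Lta was 25.3-fold lower (log2 difference -4.66 ± 0.23, adjusted p = 1.06e-10), Ltb 3.42-fold lower (-1.77 ± 0.12, adjusted p = 4.62e-09) and Tnf 2.64-fold lower (-1.40 ± 0.17, adjusted p = 2.58e-06).

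In naive KO cells too, Tnf rose and Ltb fell. Tnf was 25.9 and 21.5 CPM in KO naive against 14.2 and 11.8 CPM in WT naive cells (log2 difference 0.87 ± 0.16, adjusted p = 0.000774). Ltb was 297 and 351 CPM in KO naive against 405 and 425 CPM in WT naive cells (-0.36 ± 0.12, adjusted p = 0.0326). The Ltb call was lost without KO naive replicate 1 (adjusted p = 0.302), WT naive replicate 1 (0.0645) or WT naive replicate 2 (0.165). Lta, at 13.8 and 17.7 CPM in KO naive against 18.95 and 22.2 CPM in WT naive cells, was not called (adjusted p = 0.139). The naive KO libraries also held more myeloid and dendritic mRNA, with a sum of 1204 and 624 CPM in KO against 488 and 380 CPM in WT and 10 of 11 markers higher, whose part in the Tnf value was not tested. Mast cell and basophil markers summed to 162 and 77.6 CPM in KO naive against 59.2 and 32.15 CPM in WT naive cells. Of these, 4 of 10 were called higher and none lower, and their part in the Tnf value was not tested either. Erythroid markers summed to 1340 and 323 CPM in KO naive against 314 and 200.1 CPM in WT naive cells (5 of 7 higher). NK cell markers summed to 105 and 82.3 CPM in KO against 65.3 and 46.97 CPM in WT (2 of 5 higher). B cell markers summed to 85.8 and 54.4 CPM in KO against 26.7 and 20.4 CPM in WT (2 of 8 higher).

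The inhibitor lowered 2 of the 3 locus genes in Th2 cultures. Lta was 14.8 and 11.8 CPM with SGC0946 against 44.2 and 55.3 CPM with SGC0649, and Tnf was 5.92 and 5.89 CPM with SGC0946 against 14.3 and 15.3 CPM with SGC0649. Both SGC0946 libraries lay below both SGC0649 libraries for each gene. The log2 differences were -1.90 ± 0.19 for Lta (adjusted p = 1.86e-05) and -1.32 ± 0.19 for Tnf (adjusted p = 0.000423). Ltb, between 200 and 233 CPM with SGC0946 and between 231 and 274 CPM with SGC0649, overlapped slightly and was not called (-0.22, 95% interval -0.47 to 0.03, adjusted p = 0.284).

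Genes around the locus were read for comparison. Of 11 tested neighbours whose nearest end lay 13.6 kb or more from the Tnf start and whose farthest end lay 113 kb from it, 5 fell and none rose in KO Th1, with log2 differences from -1.18 to -0.10. In KO Th2, 5 fell and 1 rose, between -1.31 and 1.18. In KO Th1 24.8% of all genes rose and 25.8% fell, and the neighbours' median was -0.38 against 0.0111 over all genes. In KO Th2 26.5% rose and 26.9% fell, with medians of -0.14 and -0.0081. Calls in either direction, 50.6% and 53.4% of all genes, were near the neighbours' share, but most called neighbours were lower. With SGC0946 none was called in Th2, at -0.49 to 0.26. Tnf in KO Th1, and Lta and Ltb in KO Th2, lay outside the neighbours' range, as did Lta and Tnf under SGC0946 in Th2. Tnf in KO Th2, at -1.40 ± 0.17, was close to the lowest neighbour, Aif1, at -1.31 ± 0.43. Ltb and Lta in KO Th1 lay within the range, but its low end was a gene with few reads. This was Ly6g5b (-1.18 ± 0.38), at 1.63 CPM in KO Th1 against 3.68 CPM in WT Th1. Next came Aif1 (-0.71 ± 0.49), which was not called. Ltb thus lay below every tested neighbour but Ly6g5b, and Lta below every one but Ly6g5b and Aif1. Among these neighbours Aif1 and Lst1 are also known from myeloid cells.

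**Figure D3:**
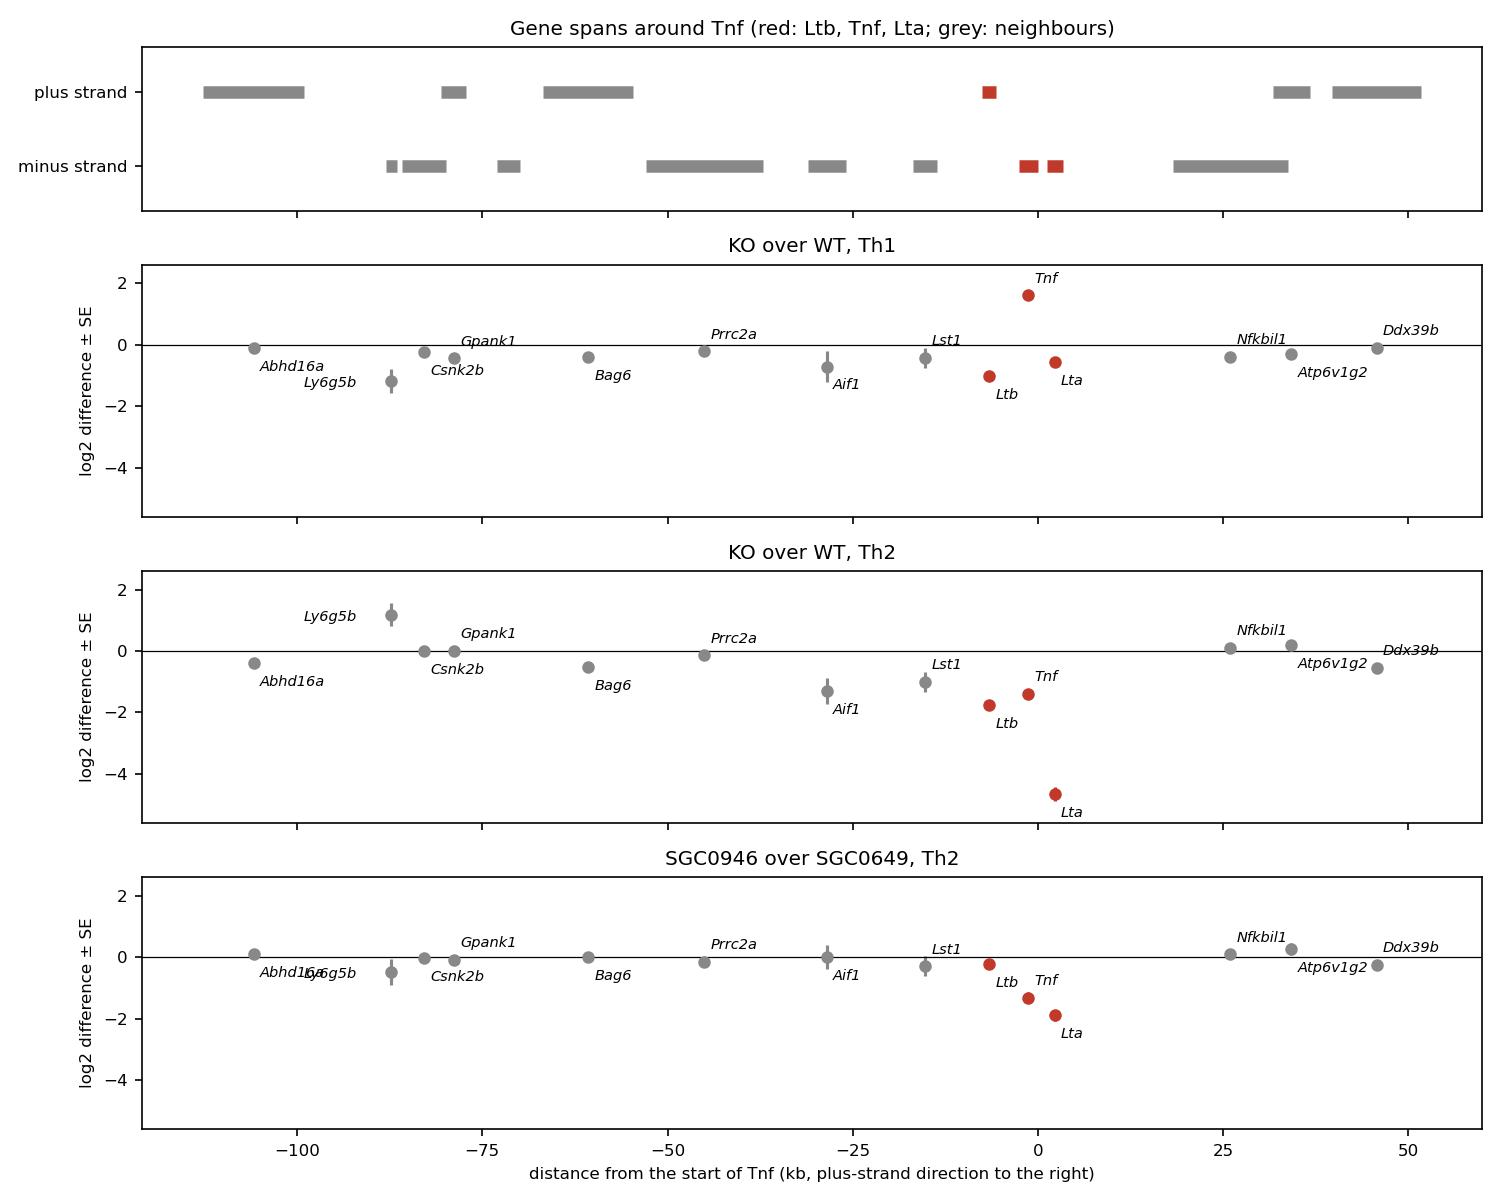
Gene spans by strand (top) and log2 differences ± SE (lower panels) against distance from the start of Tnf in kb, for KO over WT in Th1 and Th2 and SGC0946 over SGC0649 in Th2; red marks Ltb, Tnf and Lta and grey their neighbours. In KO Th1 Tnf stands at 1.62 between Ltb at -1.02 and Lta at -0.56, and in KO Th2 Lta reaches -4.66.

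Of the death ligands, Tnfsf10 rose in both kinds of KO culture and Fasl in Th2 cultures. Tnfsf10 was 137 and 225 CPM in KO Th2 against 41.3 and 40.3 CPM in WT Th2, and 177 and 158 CPM in KO Th1 against 80.2 and 91.2 CPM in WT Th1. All 4 KO culture libraries stood above all 12 WT culture libraries. The log2 differences were 2.15 ± 0.24 in Th2 (adjusted p = 4.57e-06) and 0.96 ± 0.23 in Th1 (adjusted p = 0.00310). WT Th1 cultures had more Tnfsf10 than WT Th2 cultures (log2 difference 1.07 ± 0.24, adjusted p = 0.00194). Between KO Th1 and KO Th2 cultures the libraries overlapped and Tnfsf10 was not called (-0.11, 95% interval -0.59 to 0.37, adjusted p = 0.695).

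Fasl was 22.2 and 38.8 CPM in KO Th2 against 10.7 and 9.92 CPM in WT Th2, so both KO libraries were higher but far from each other. The log2 difference was 1.55 ± 0.32 (adjusted p = 0.000867). In Th1 it was 59.1 and 37.8 CPM in KO against 35.3 and 30.4 CPM in WT, which was not called (0.56 ± 0.27, adjusted p = 0.102) unless KO Th1 replicate 2 was left out (adjusted p = 0.0325). In naive cells it was 50.7 and 51.2 CPM in KO against 40.0 and 29.9 CPM in WT (0.55 ± 0.28, adjusted p = 0.156).

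CD8 mRNA moved with both death ligands in KO Th2. Cd8a and Cd8b1 summed to 130 and 267 CPM in KO Th2 against 13.1 and 16.2 CPM in WT Th2, although the cells were sorted as CD4+, and both genes were called higher. The KO Th2 library with more of it, replicate 2, was also the one with more Fasl and more Tnfsf10. Replicate 2 had more Lta, Ltb and Tnfsf8 too, which fell in KO Th2, and less Tnf, Tnfsf11 and Cd40lg. Its sums of NK cell, myeloid, stromal and CD4 T cell markers were likewise higher, and that of B cell markers lower. In KO Th1 the CD8 sum was 27.6 and 22.1 CPM against 21.9 and 25.9 CPM in WT Th1, where Tnfsf10 was also called higher. CD8 T cells are known to express both ligands, and their part in the Th2 values was not tested.

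Cd40lg, the B cell help signal, showed the lowest level of any member in any group. It was 0.700 and 0.647 CPM in KO Th2, from 8 and 6 reads, against 24.7 and 25.4 CPM in WT Th2. In Th1 it was 16.3 and 13.9 CPM in KO against 46.3 and 42.3 CPM in WT, and in naive cells 122 and 128 CPM in KO against 150 and 155 CPM in WT. KO libraries were below WT in each setting, with no overlap. The log2 difference was -5.19 ± 0.21 in Th2 (adjusted p = 8.67e-12), a 36.5-fold lower level, and -1.56 ± 0.12 in Th1 (adjusted p = 2.62e-08). In naive cells it was -0.29 ± 0.10 (adjusted p = 0.0410), a call that was lost on leaving out any of the 4 libraries (adjusted p 0.0785 to 0.240). Cd4 mRNA was also lower, at 158 and 175 CPM (lowest and highest library) in KO Th2 against 543 and 585 CPM in WT Th2. It was 199 and 212 CPM in KO Th1 against 1007 and 1049 CPM in WT Th1. In naive cells it was 398 and 409 CPM in KO against 981 and 990 CPM in WT. The 8 CD4 T cell markers summed to 4151 and 4907 CPM in KO Th2 against 3527 and 3264 CPM in WT Th2, with 4 called higher and 4 lower. In KO Th1 1 of the 8 was called higher and 6 lower, and in KO naive cells 1 higher and 4 lower. A link of these markers to the Cd40lg values was not tested.

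Tnfsf8, the ligand of CD30, fell nearly as far. It was 5.51 and 10.0 CPM in KO Th2 against 305 and 242 CPM in WT Th2, and 30.8 and 29.5 CPM in KO Th1 against 181 and 177 CPM in WT Th1. In naive cells it was 75.4 and 78.5 CPM in KO against 97.0 and 97.0 CPM in WT. The groups were separate in all 3 settings. The log2 differences were -5.17 ± 0.18 in Th2 (adjusted p = 1.74e-12, 35.9-fold lower), -2.57 ± 0.15 in Th1 (adjusted p = 1.64e-09) and -0.33 ± 0.14 in naive cells, which was not called (adjusted p = 0.0839). WT cells raised Tnfsf8 in culture, to 181 and 177 CPM in Th1 against 97.0 and 97.0 CPM in naive cells (log2 difference 0.88 ± 0.14, adjusted p = 2.68e-05). KO cells lowered it, to 30.8 and 29.5 CPM in Th1 against 75.4 and 78.5 CPM in naive cells (-1.35 ± 0.15, adjusted p = 4.72e-07).

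Tnfsf14, the gene of LIGHT, rose in KO cells before culture and fell in KO Th2 cultures. It was 20.1 and 17.2 CPM in KO naive against 7.56 and 6.29 CPM in WT naive cells (log2 difference 1.43 ± 0.18, adjusted p = 3.75e-05). In Th2 it was 6.30 and 6.36 CPM in KO against 65.3 and 54.9 CPM in WT (-3.25 ± 0.18, adjusted p = 2.93e-10, 9.49-fold lower). Both KO Th2 values fell between those of the WT naive libraries. In Th1 it was 27.6 and 22.1 CPM in KO against 17.2 and 19.4 CPM in WT (0.44 ± 0.16, adjusted p = 0.0295). That call was lost without KO Th1 replicate 1 (adjusted p = 0.289), WT Th1 replicate 1 (0.189) or WT Th1 replicate 2 (0.0551). Myeloid markers, higher in the KO naive libraries as given above, come from cells that can also make LIGHT, and their part was not tested.

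Tnfsf11, the gene of RANK ligand, was far higher in KO Th1 than in WT Th1 cultures. It was 35.3 and 23.99 CPM in KO Th1 against 3.23 and 3.64 CPM in WT Th1, an 8.61-fold higher level with no overlap (log2 difference 3.11 ± 0.21, adjusted p = 6.70e-09). The KO Th1 libraries bracketed the WT naive ones, which had 33.1 and 30.6 CPM. It fell in Th1 culture in both genotypes, with a log2 difference of -0.64 ± 0.16 between KO Th1 and KO naive cells (adjusted p = 0.00229) and of -3.21 ± 0.21 between WT Th1 and WT naive cells (adjusted p = 7.97e-10). The mast cell, basophil and myeloid markers given for Tnf were higher in the same KO Th1 libraries, and most so in replicate 1. That replicate had more of each of the 9 ligands, whether or not they were higher in KO Th1 than in WT Th1. The gaps between the KO Th1 libraries were unequal, at 250 against 241 CPM for Ltb and 59.1 against 37.8 CPM for Fasl. The part of these cell types in the Tnfsf11 value was not tested. In Th2 it was 10.7 and 9.60 CPM in KO against 13.9 and 10.4 CPM in WT, which overlapped and was not called (-0.26, 95% interval -0.68 to 0.15, adjusted p = 0.275). In naive cells it was 44.4 and 48.0 CPM in KO against 33.1 and 30.6 CPM in WT (0.54 ± 0.17, adjusted p = 0.0231). Leaving out any of those 4 libraries lost the naive call (adjusted p 0.0695 to 0.144).

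KO Th2 cultures had 8 ligands lower than KO naive cells and only Tnfsf10 higher, where 69.1% of all genes were called, 34.2% as higher and 34.9% as lower. The median over the 9 was -1.80 on the log2 scale against -0.0114 over all genes. Cd40lg was 182-fold lower in KO Th2 than in KO naive cells (log2 difference -7.50 ± 0.19, adjusted p = 3.87e-15). KO Th1 cultures had 4 ligands higher and 4 lower than KO naive cells, against 71.0% of genes (36.2% higher and 34.8% lower), led by Tnf among those that rose (3.14 ± 0.14, adjusted p = 8.98e-12). These comparisons share the KO naive libraries. Fasl lost its KO Th2 call without KO Th2 replicate 1 (adjusted p = 0.258), KO naive replicate 1 (0.0718) or KO naive replicate 2 (0.0745). In KO Th1 against KO naive cells, Tnfsf14 lost its call without KO Th1 replicate 1 (0.278) or KO naive replicate 2 (0.197), Tnfsf11 without KO Th1 replicate 2 (0.0565) and Ltb without KO naive replicate 2 (0.0639). Between KO Th1 and KO Th2 cultures, 8 ligands were higher in Th1 and none lower, where 59.8% of genes were called, 28.1% as higher and 31.8% as lower. Fasl, whose libraries overlapped, was among the 8 (adjusted p = 0.0481) and lost its call without KO Th1 replicate 1 (0.424) or KO Th2 replicate 1 (0.369). Lta, Tnfsf8, Tnfsf11 and Tnfsf14, each higher in KO Th1 than in KO Th2, were lower in WT Th1 than in WT Th2 cultures.

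The KO effect differed between Th1 and Th2 cultures for 8 of the 9 ligands, against 46.2% of all genes (22% higher and 24.3% lower). It was higher in Th1 for 7 of them and lower for Tnfsf10. The median difference of the 2 effects was 3.02 on the log2 scale, against -0.00588 over all genes. The difference was 4.10 ± 0.29 for Lta (adjusted p = 3.63e-08) and 3.02 ± 0.21 for Tnf (adjusted p = 2.57e-08). Tnf and Tnfsf14 were called in opposite directions in the 2 conditions. Fasl was not called in this test (-0.99, 95% interval -1.89 to -0.09, adjusted p = 0.0675), but was called by DESeq2 (-0.999, adjusted p = 0.0349) and without KO Th1 replicate 1 (0.0183) or KO Th2 replicate 1 (0.0128).

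Against naive cells the KO effect differed for 6 ligands in Th1 and 8 in Th2, comparisons that share the naive libraries. In Th1, Tnf and Tnfsf11 had the higher effect and Ltb, Tnfsf8, Tnfsf14 and Cd40lg the lower, where 27.5% of all genes were called, 10.7% as higher and 16.9% as lower. In Th2, Tnfsf10 had the higher effect and Lta, Ltb, Tnf, Tnfsf8, Tnfsf11, Tnfsf14 and Cd40lg the lower, against 35.7% of all genes, 17% higher and 18.7% lower. The largest of these was -4.90 ± 0.25 for Cd40lg in Th2 (adjusted p = 8.42e-10). Fasl was not called in Th2 minus naive by edgeR (1.01 ± 0.42, adjusted p = 0.0775), but was by DESeq2 (1.04, adjusted p = 0.0339) and without KO Th2 replicate 1 (0.0149).

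SGC0946 and SGC0649 were compared at the same concentration and time. In Th2 cultures 4 ligands fell with SGC0946, which were Lta, Tnf, Tnfsf8 and Cd40lg, and none rose, where 7.96% of all genes were called, 5.45% as higher and 2.51% as lower. Tnfsf8 was 72.8 and 75.7 CPM with SGC0946 against 189 and 167 CPM with SGC0649 (log2 difference -1.26 ± 0.14, adjusted p = 5.97e-05). Cd40lg was 17.2 and 12.5 CPM with SGC0946 against 21.2 and 21.1 CPM with SGC0649 (-0.51 ± 0.13, adjusted p = 0.0198). The Cd40lg call was lost without SGC0649 replicate 2 (adjusted p = 0.0777) or SGC0946 replicate 2 (0.175). All 4 lost their call when these 4 libraries were fitted alone (adjusted p 0.0617 to 0.301). The values were then -1.93 for Lta, -1.35 for Tnf, -1.28 for Tnfsf8 and -0.54 for Cd40lg. Of all groups, Th2 with SGC0649 had the widest spread between replicates, 19.4 times counting error. The main fit shared its estimate of spread over all groups, and the part of this in the calls was not tested.

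The other 5 ligands were not called with SGC0946 in Th2. Tnfsf14 was 41.2 and 41.3 CPM with SGC0946 against 54.3 and 42.7 CPM with SGC0649 (log2 difference -0.23, 95% interval -0.55 to 0.08). Tnfsf10 was 48.9 and 70.4 CPM with SGC0946 against 39.0 and 55.0 CPM with SGC0649 (0.34, interval -0.18 to 0.87). Fasl (0.02, interval -0.69 to 0.73) and Tnfsf11 (-0.09, interval -0.53 to 0.35) overlapped between the compounds. For Tnfsf10 and Fasl these intervals end below the KO differences of 2.15 and 1.55.

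In Th1 cultures edgeR called none of the 9 with SGC0946, where 0.467% of all genes were called (0.405% higher and 0.0612% lower), and DESeq2 and limma voom called 0 as well. At an unadjusted p under 0.05 stood 2 ligands, Tnf and Tnfsf11, and 9.89% of all genes. Tnf was 80.5 and 93.5 CPM with SGC0946 against 69.2 and 52.7 CPM with SGC0649, so both SGC0946 libraries were higher (log2 difference 0.51 ± 0.13, adjusted p = 0.0978). Without the filter on low counts it was called (adjusted p = 0.0424), as it was with these 4 libraries alone (0.0277). Tnfsf11 was 3.95 and 5.004 CPM with SGC0946 against 2.43 and 2.96 CPM with SGC0649 (0.72 ± 0.27, adjusted p = 0.322). The 95% interval for Cd40lg was -0.21 to 0.26, and for Tnfsf8 it was -0.57 to 0.01. The SGC0946 effect differed between Th1 and Th2 for 3 ligands, Lta, Tnf and Tnfsf8, against 0.520% of all genes (0.222% higher and 0.298% lower), and was higher in Th1 for all 3.

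The control compound was itself compared with no compound. In Th1 edgeR called 0 of 9 ligands, where 0.0153% of genes were called, with 0 at an unadjusted p under 0.05 and 0 by DESeq2 or limma voom. In Th2 it called 1, Tnfsf8, against 0.673% of genes, 0.245% higher and 0.428% lower. At an unadjusted p under 0.05 stood 6 ligands, Lta, Ltb, Tnf, Tnfsf8, Tnfsf11 and Tnfsf14, all with lower values with SGC0649, and 21% of all genes. Tnfsf8 was 189 and 167 CPM with SGC0649 against 305 and 242 CPM without compound (log2 difference -0.62 ± 0.13, adjusted p = 0.0463). The call was lost without WT Th2 replicate 1 (adjusted p = 0.451) or SGC0649 replicate 2 (0.327). These Th2 libraries with SGC0649 are also the baseline of the SGC0946 values above.

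Gene deletion and inhibitor gave effects of different size for most ligands, in a test on separate libraries. The 2 effects differed for 7 of 9 ligands in Th1, against 30.7% of all genes (12.8% higher and 17.9% lower), and for 7 of 9 in Th2, against 32.0% (15% higher and 17% lower). In Th2, Tnf had a similar value under both, -1.40 ± 0.17 for deletion and -1.32 ± 0.19 for the inhibitor, and the difference of the 2 was -0.08 (95% interval -0.62 to 0.47). Lta fell under both but 2.76 ± 0.31 further on the log2 scale under deletion (difference -2.76, adjusted p = 5.27e-06). Tnfsf14 fell under deletion and not by the test under the inhibitor (difference -3.01 ± 0.23, adjusted p = 9.91e-08). For Fasl in Th2 the difference was 1.54 ± 0.46 (adjusted p = 0.0199), and it was lost without KO Th2 replicate 2 (adjusted p = 0.0783), WT Th2 replicate 2 (0.0549), SGC0649 replicate 1 (0.111) or SGC0946 replicate 2 (0.0686). In Th1 the differences for Tnfsf10 (0.91 ± 0.33, adjusted p = 0.0481) and Tnfsf14 (0.70 ± 0.23, adjusted p = 0.0284) were lost without KO Th1 replicate 1 (0.123 and 0.138), WT Th1 replicate 1 (0.143 and 0.111), SGC0946 replicate 1 (0.176 and 0.114) or SGC0649 replicate 2 (0.173 and 0.170), and that for Tnfsf10 also without KO Th1 replicate 2 (0.0657) or WT Th1 replicate 2 (0.0733).

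**Figure D4:**
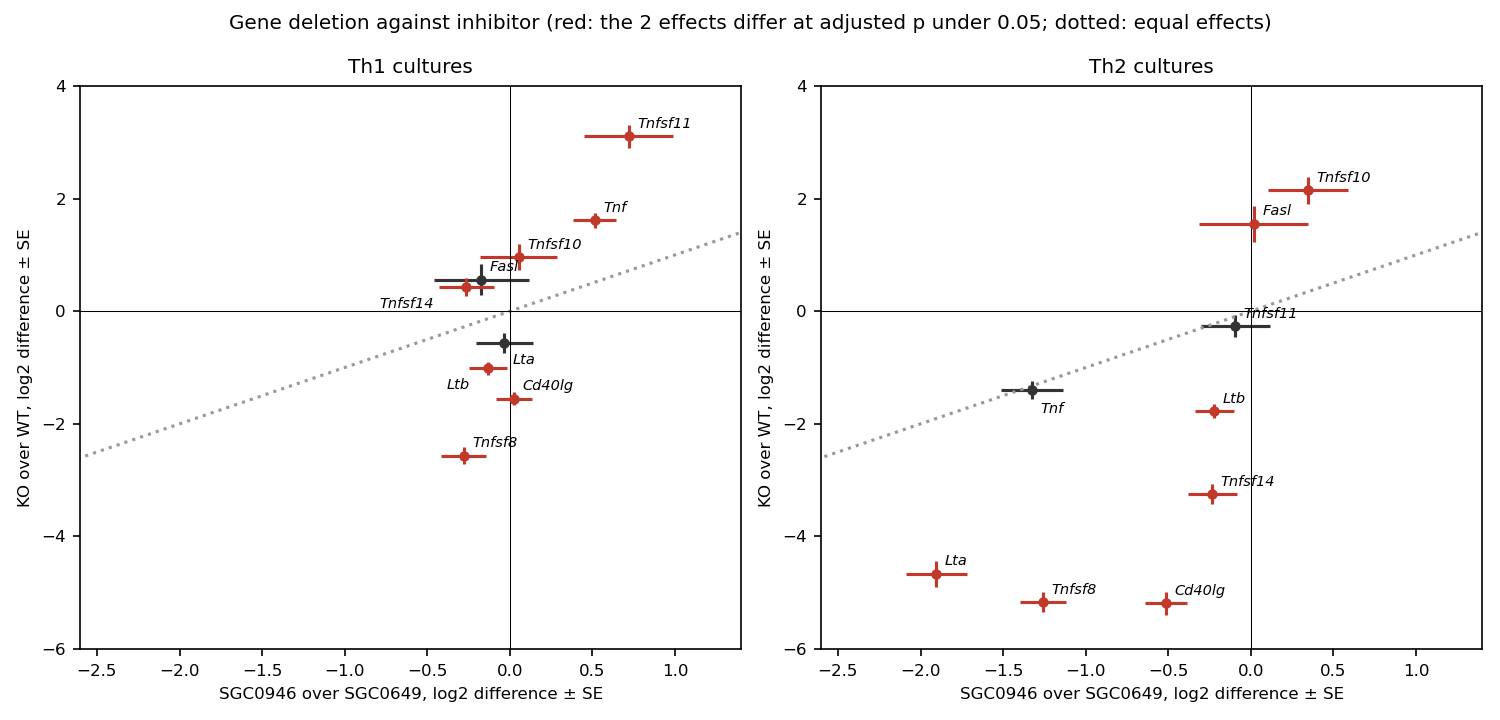
KO over WT (vertical axes) against SGC0946 over SGC0649 (horizontal axes) as log2 differences ± SE for the 9 ligands in Th1 (left) and Th2 (right); the axes differ in scale, the dotted line marks equal effects and red marks effects that differ by the test. In Th2 Tnf lies on the dotted line at -1.40 and -1.32, while Cd40lg and Tnfsf14 lie far below it.

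The receptors of these ligands were read from a list of 12, all of which were tested. In naive cells 2 rose and 2 fell in KO, in Th1 5 rose and 3 fell, and in Th2 6 rose and 2 fell, where 28.4%, 50.6% and 53.4% of all genes were called, with medians of 0.33, 0.28 and 0.76 on the log2 scale against 0.0134, 0.0111 and -0.0081 over all genes. Tnfrsf8, the CD30 receptor of the Tnfsf8 ligand, was 2542 ± 129 CPM in KO Th2 against 890 ± 3.79 CPM in WT Th2, and 682 ± 20.4 CPM in KO Th1 against 137 ± 15.7 CPM in WT Th1 (SD, n = 2). In both kinds of KO culture it was thus higher than in WT, while its ligand was lower. Between WT cultures both were lower in Th1 than in Th2, at -2.70 ± 0.10 for Tnfrsf8 and -0.61 ± 0.13 for Tnfsf8. The log2 difference of Tnfrsf8 for KO over WT in Th1 was 2.31 ± 0.09 (adjusted p = 3.06e-11). With SGC0946 over SGC0649 it was 0.79 ± 0.09 in Th1 (adjusted p = 0.00102) and 0.75 ± 0.09 in Th2 (adjusted p = 0.000109). Ltbr, the lymphotoxin beta receptor known from stromal and myeloid cells, was 6.58 ± 0.54 CPM in KO Th1 against 0.628 ± 0.0477 CPM in WT Th1 (SD, n = 2; log2 difference 3.37 ± 0.49, adjusted p = 3.32e-05).

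Of 9 other ligands of the superfamily, 5 had enough reads to be tested, and in KO Th2 2 of them rose and 2 fell, where 26.5% of all genes rose and 26.9% fell. Tnfsf13b, the gene of the B cell survival factor BAFF, was 98.7 ± 20.2 CPM in KO Th2 against 3.09 ± 1.44 CPM in WT Th2 (SD, n = 2; log2 difference 4.98 ± 0.29, adjusted p = 6.53e-10). It also rose with SGC0946 in Th2, to 11.7 ± 3.05 CPM against 4.12 ± 1.29 CPM with SGC0649 (SD, n = 2; 1.51 ± 0.29, adjusted p = 0.00546). Myeloid cells are a known source of BAFF, and myeloid and dendritic markers summed to 444 and 507 CPM in KO Th2 against 107 and 101 CPM in WT Th2, with 6 of 11 higher and 1 lower, a part that was not tested. Tnfsf4, the gene of OX40 ligand, fell to 1.27 ± 0.19 CPM in KO Th2 against 10.9 ± 0.76 CPM in WT Th2 (SD, n = 2; -3.11 ± 0.22, adjusted p = 5.65e-09). It also fell with SGC0946 in Th2, to 3.67 ± 0.23 CPM against 8.37 ± 1.10 CPM with SGC0649 (SD, n = 2; -1.19 ± 0.19, adjusted p = 0.00102). Cd70 had no reads in either KO Th2 library and averaged 0.240 CPM in WT Th2.

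Genes that act before or after the ligands were read from 4 further lists. Of 26 genes of receptor-proximal and NF-κB signalling, 4 rose and 9 fell in KO naive cells, 2 rose and 15 fell in KO Th1, and 5 rose and 9 fell in KO Th2, with medians of -0.16, -0.33 and 0.00295 against 0.0134, 0.0111 and -0.0081 over all genes. Of all genes 28.4%, 50.6% and 53.4% were called, which puts the Th2 count at the background share. Rel, an NF-κB subunit that acts on T cell cytokine genes, was 25.7 ± 2.56 CPM in KO Th2 against 90.1 ± 2.59 CPM in WT Th2 (SD, n = 2; log2 difference -1.81 ± 0.14, adjusted p = 1.60e-08). It also fell with SGC0946 over SGC0649 in Th2 (-0.78 ± 0.13, adjusted p = 0.00180). Of 12 transcription factors known to act on ligand genes, 7 rose and none fell in KO naive cells, where 16% of all genes rose and 12.4% fell, and 4 rose and 4 fell in KO Th2, where 26.5% rose and 26.9% fell. Egr2, induced by the T cell receptor, was 15.1 ± 1.74 CPM in KO Th2 against 70.2 ± 21.3 CPM in WT Th2 (SD, n = 2; -2.23 ± 0.23, adjusted p = 7.99e-07). In KO Th1, where 24.8% of all genes rose and 25.8% fell, 3 factors rose and 4 fell, among them Nfatc1, which encodes an NFAT protein (-1.71 ± 0.09, adjusted p = 3.49e-10).

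Of 9 factors that control the decay of cytokine mRNA, none rose and 5 fell in KO Th1, where 24.8% of all genes rose and 25.8% fell, and 4 rose and 3 fell in KO Th2, where 26.5% rose and 26.9% fell. Zfp36, whose product tristetraprolin promotes decay of Tnf mRNA, fell in KO Th1 (log2 difference -0.84 ± 0.13, adjusted p = 7.55e-05) and rose in KO Th2 (1.12 ± 0.13, adjusted p = 2.46e-06). These directions were opposite to those of Tnf. In KO naive cells both Zfp36 (0.86 ± 0.13, adjusted p = 0.000138) and Tnf were higher. Zfp36l1 fell in both KO Th1 (-1.50 ± 0.09, adjusted p = 3.48e-09) and KO Th2 (-0.37 ± 0.09, adjusted p = 0.00354). With SGC0946 in Th2, where Tnf fell, none of the 9 factors was called, against 7.96% of all genes. A link between these factors and Tnf was not tested. Of 5 genes that serve the shedding of ligands from the membrane, all 5 rose in KO Th2, against 26.5% of all genes, and 3 rose and 1 fell in KO Th1, against 24.8% and 25.8%. Rhbdf2, which brings the TNF-cleaving protease to the surface, rose in both (1.59 ± 0.12 in Th2, adjusted p = 1.18e-08, and 1.21 ± 0.12 in Th1, adjusted p = 3.85e-07).

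The members were also compared by the shape of their pattern over the 10 group means, on the log2 scale. Among pairs of members, Lta and Tnfsf8 were the most alike (Pearson r = 0.90), followed by Ltb and Cd40lg (r = 0.87), and Tnfsf10 and Cd40lg the least (r = -0.70). Lta and Tnf, 1157 bases apart, had r = 0.45. Among 10578 other genes, the closest to Ltb were Phtf1 (r = 0.986) and Aff3 (r = 0.985), and the closest to Lta was Plk2 (r = 0.976). Zbtb46 was closest to Tnf (r = 0.95), P2ry14 to Tnfsf10 (r = 0.99), Pip5k1a to Tnfsf8 (r = 0.98) and Frrs1 to Tnfsf11 (r = 0.97). Lmbrd2 was closest to Tnfsf14 (r = 0.955), Ccsap to Cd40lg (r = 0.96) and Cd160 to Fasl (r = 0.97). With 10 points that share libraries and 10578 genes searched, high values are found readily, and they describe these groups only.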

How the data were processed

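Total RNA libraries were deposited as a table of raw counts of reads per gene, which the authors made with featureCounts. Per the file headers its version was 1.5.3, strand was set to 2, and genes came from Ensembl (release 84, GRCm38). Exonic lengths in bases stand beside the deposited counts and served only for CPM per kb. The aligner is not given in the sources used here, and the submitters' processing notes also name edgeR and limma without versions. Between 49.5% and 56.3% of alignments were assigned to a gene. The recorded command leaves the default in place by which reads over 2 genes on 1 strand are not counted, which touches Lta and Ltb, each overlapping a miRNA gene.

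Protein-coding genes with enough reads (filterByExpr, count minimum 10, total minimum 15) were scaled by TMM (factors 0.878 to 1.08) and fitted in edgeR 4.0.16 under R 4.3.3, with 10 group means over 20 libraries, robust quasi-likelihood dispersions and 10 residual degrees of freedom. The common biological coefficient of variation was 0.0963. Intervals are at 95%. Alternatives used DESeq2 1.42.0, limma voom (3.58.1), RLE scaling, no filter, all gene classes, the libraries of a contrast alone, a replicate block and each library left out. The procedure was tested on simulated data. Replicates of a group differed by 2.25 to 19.4 times counting error (chi-square per degree of freedom), so none was a copy. The widest were WT Th2 with SGC0649 (19.4) and KO Th2 (16.2). As the fit shared its estimate of spread over all groups, p-values for these 2 groups rest partly on less variable ones. The second SGC0946 library of each condition has a 1 in its column name and a 2 in its title, and was matched by the S number in both.

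The ligands and all lists were chosen with earlier results of these data known. Text names all 9 ligands, up to 2 called genes with the largest difference from each list in each KO or SGC0946 comparison (a selection of these is printed), and the genes closest to each ligand among those averaging log2 CPM 1 or more, leaving out provisional names. Cd4 was named after its values were seen.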

Additional observations from a re-analysis of the deposited data

Results flagged for a closer look

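The results below stood out because the effect of the same change differed between culture conditions by edgeR's quasi-likelihood test of the difference itself, with Benjamini-Hochberg adjustment over 13072 genes. With n = 2 libraries per group, single libraries were not tested for lying apart.

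The KO effect in Th1 minus that in Th2 was, on the log2 scale, 4.10 for Lta, 0.76 for Ltb and 3.02 for Tnf. It was 2.597 for Tnfsf8, 3.37 for Tnfsf11, 3.68 for Tnfsf14, 3.63 for Cd40lg and -1.18 for Tnfsf10, and the largest adjusted p among these 8 was 0.00947. For Lta, Ltb, Tnfsf8 and Cd40lg the KO level was lower in both conditions and further below WT in Th2.

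The KO effect in Th1 minus that in naive cells was -0.66 for Ltb, 0.75 for Tnf and -2.23 for Tnfsf8. It was 2.57 for Tnfsf11, -0.99 for Tnfsf14 and -1.27 for Cd40lg. The Tnf difference (adjusted p = 0.0121) was lost without KO Th1 replicate 1 (0.0630), WT Th1 replicate 2 (0.0536), KO naive replicate 2 (0.0665) or WT naive replicate 1 (0.0929).

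The KO effect in Th2 minus that in naive cells was -4.27 for Lta, -1.42 for Ltb and -2.27 for Tnf. It was -4.83 for Tnfsf8, 1.77 for Tnfsf10, -4.68 for Tnfsf14, -4.90 for Cd40lg and -0.80 for Tnfsf11. The Tnfsf11 difference (adjusted p = 0.0221) was lost without KO Th2 replicate 2 (0.0660), WT Th2 replicate 1 (0.160), KO naive replicate 2 (0.0646) or WT naive replicate 2 (0.0699). These naive libraries also serve the Th1 comparison.

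The SGC0946 effect over SGC0649 in Th1 minus that in Th2 was 1.87 for Lta, 1.84 for Tnf and 0.98 for Tnfsf8. The Tnfsf8 difference (adjusted p = 0.0357) was lost on leaving out any of 6 of the 8 libraries, both SGC0946 and both SGC0649 libraries of Th1 and both SGC0946 libraries of Th2, with adjusted p up to 0.151.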

How the results depend on the processing

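Across 141 results for the ligands and 1723 recomputed values, 1611 kept direction and call, 77 lost the call, 24 gained it and 11 reversed, none of these where a call had been made. The 141 are all results of KO against WT and SGC0946 against SGC0649, and others called in a fit that left out no library of the comparison. In those other comparisons, a call gained only with a library left out is therefore not among the 24. As a fold, no called value moved over 1.5 times. On the log2 scale 8 did with a library left out, and ran from -0.48 to -0.24 for Ltb in KO against WT naive cells, 0.26 to 0.58 for Tnfsf14 in KO against WT Th1, -0.95 to -0.40 for Tnfsf11 and 0.24 to 0.56 for Tnfsf14 in KO Th1 against KO naive, -1.21 to -0.39 for Fasl in KO Th2 against KO naive, 0.30 to 1.13 for Fasl in KO Th1 against KO Th2, -1.49 to -0.78 for Tnfsf10 in the KO effect of Th1 minus Th2, and -0.76 to -0.31 for Cd40lg with SGC0946 in Th2. Counts of ligands called moved as follows. For KO against WT in naive cells the count of 5 became 8 with the libraries of the contrast alone and 2 to 3 with a library left out. For SGC0946 against SGC0649 in Th1 the count of 0 became 1 (Tnf) without the filter on low counts, with the replicate block and with the contrast's libraries alone, and in Th2 the count of 4 became 0 with the contrast's libraries alone. For SGC0649 against no compound in Th2 the count of 1 became 2 without the filter, with the block and with DESeq2, 0 with all gene classes and with the contrast's libraries alone, and 0 to 3 with a library left out. The cause was not tested. Reversed values were SGC0946 over SGC0649 in Th2 for Fasl, -0.0131 with all gene classes and -0.00531 with the contrast's libraries alone. With a library left out, these values ran in Th1 from -0.18 to 0.13 for Lta, -0.15 to 0.24 for Tnfsf10, -0.0288 to 0.09 for Cd40lg and -0.33 to 0.0117 for Fasl, and in Th2 from -0.33 to 0.38 for Fasl and -0.23 to 0.0468 for Tnfsf11.

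Replicate numbers were not taken to pair libraries. Deviations of same-numbered libraries correlated at 0.0735 to 0.436 over 15 pairs of WT culture groups and at 0.109 to 0.248 over 3 pairs of KO and WT. As a block, the number gained calls for Tnf with SGC0946 in Th1 (adjusted p = 0.0347) and with SGC0649 in Th2 (0.0262), and for Fasl in the KO effect of Th1 minus Th2 (0.0382) and of Th2 minus naive (0.0495). It changed no other call.

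Limits are the 2 libraries per group, few reads for Cd40lg and Lta in KO Th2, mRNA of other cell types in KO libraries, and Dot1l counts that cannot show the deletion. Leaving out a library leaves 1 in its group that is assumed to vary like the other groups.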
